A study of Mus musculus with 8 samples.

Results

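Axl and Mertk, the TAM receptors found among the listed genes, and Gas6 and Pros1, ligands of the TAM family, were followed across the Gab2 genotypes of a murine AML model. The members were chosen by name, and 4 of the 13305 genes in the count table belong to this group. Tyro3, the remaining receptor of the family, is not among the listed genes and was not analysed here. TAM receptors are receptor tyrosine kinases with immunoglobulin-like and fibronectin-like domains outside the cell. Gas6 and protein S (Pros1) bridge receptors of this family to phosphatidylserine on dying cells and platelets, after a vitamin K-dependent modification of their Gla domain. The ligands need not share every receptor, and binding was not tested here. In BM, Mertk is known from macrophages that clear dying cells, while Axl is known from macrophages and dendritic cells under inflammatory stimuli and from AML blasts that resist inhibitors.

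Whole BM was taken from AML mice on the C57BL/6N background, and each mouse gave 1 RNA-seq library. All mice, including the AML WT group that served as reference, carried the Mx1-Cre transgene, 1 inactivated Dnmt3a allele (Dnmt3a+/-) and Flt3-ITD on both alleles (Flt3ITD/ITD). They differed in Gab2, with 3 AML WT (Gab2+/+), 2 AML HET (Gab2+/-) and 3 AML KO (Gab2-/-) mice. Mx1-Cre is an interferon-inducible transgene, and the study used the mice without an inducer because the Dnmt3a allele was already recombined. Normal BM without Flt3-ITD was not analysed here, so every comparison is within AML. The sources used here do not give the age or sex of the sequenced mice. Libraries held 28009258 to 39266815 counts. No listed gene had fewer than 106 counts over the 8 mice. Gab2, the gene of the knockout, was at 93.9, 68.5 and 61.6 CPM (counts scaled to a common library size, with TMM factors) in AML WT mice 1 to 3, at 55.8 and 50.8 in AML HET mice and at 34.96, 47.2 and 40.2 in AML KO mice. The levels did not overlap between the groups and followed the order of the labels. The knockout allele replaces part of the Gab2 exons with a cassette, and the table holds counts per gene. Where on the gene the counts of AML KO BM lie was not tested. AML KO mouse 2 is named below at several of the values that it decides.

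To place the genes in the genome, positions were taken from GENCODE M21 (GRCm38). Axl (ENSMUSG00000002602) lies on chromosome 7 from 25757273 to 25788705 on the minus strand, 71.3 Mb from Gab2 on the same chromosome. Mertk (ENSMUSG00000014361) lies on chromosome 2 from 128698956 to 128802894 on the plus strand. Gas6 (ENSMUSG00000031451) lies on chromosome 8 from 13465374 to 13494490 on the minus strand, and Pros1 (ENSMUSG00000022912) on chromosome 16 from 62854307 to 62929346 on the plus strand. All 4 are protein-coding genes.

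The 250 bases before the RefSeq start (GRCm38.p6) are shown for Axl, whose transcript fell, for its ligand Gas6, and for Pros1, the only 1 of the 4 windows that holds the STAT5 palindrome. They lie at chr7:25788734-25788983 (minus strand), chr8:13494536-13494785 (minus strand) and chr16:62854057-62854306 (plus strand), and are written 5′ to 3′ on the strand of the gene. Capitals mark matches, on either strand, to the STAT5 palindrome TTCNNNGAA, the AP-1 site TGANTCA, the SP1 box GGGCGG, the GATA core GATAA and the PU.1 core GAGGAA.
Axl: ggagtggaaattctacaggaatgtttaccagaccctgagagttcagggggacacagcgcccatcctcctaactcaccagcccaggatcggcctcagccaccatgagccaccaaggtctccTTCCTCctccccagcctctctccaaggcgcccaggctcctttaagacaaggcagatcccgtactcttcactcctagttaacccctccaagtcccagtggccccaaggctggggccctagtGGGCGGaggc
Gas6: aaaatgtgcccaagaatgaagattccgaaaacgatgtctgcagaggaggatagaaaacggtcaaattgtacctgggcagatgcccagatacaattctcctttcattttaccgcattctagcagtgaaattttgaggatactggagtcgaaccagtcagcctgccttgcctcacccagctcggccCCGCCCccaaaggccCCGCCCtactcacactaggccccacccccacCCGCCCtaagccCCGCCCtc
Pros1: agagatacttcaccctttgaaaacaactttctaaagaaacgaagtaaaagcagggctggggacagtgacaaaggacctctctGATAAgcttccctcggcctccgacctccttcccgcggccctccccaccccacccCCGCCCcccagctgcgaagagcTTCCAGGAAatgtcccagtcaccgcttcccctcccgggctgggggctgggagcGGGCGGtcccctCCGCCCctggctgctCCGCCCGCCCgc
The Axl window holds 1 PU.1 core, with its first base at position -130 from the start, and 1 SP1 box at -10. No match to the STAT5 palindrome, the AP-1 site or the GATA core lies in these letters. The Gas6 window holds 4 SP1 boxes and no other motif of the search, and the Mertk window holds 3. Pros1 has 5 SP1 boxes, the last pair of which overlaps, 1 GATA core at -168 and 1 STAT5 palindrome at -92. Over 32817 windows of the same length, 32.7% hold an SP1 box, 23.3% a PU.1 core, 22.6% a GATA core, 7.01% the STAT5 palindrome and 6.75% the AP-1 site. A match is a run of letters and was not tested for binding, and enhancers outside the windows were not searched.

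The receptors were far apart in level. Axl was at 82.4, 61.6 and 80.7 CPM in the AML WT mice, at 59.4 and 49.6 CPM in the AML HET mice and at 19.6, 37.1 and 20.5 CPM in the AML KO mice. Each genotype lay below the one before it without overlap, an order that 0.707% of all genes followed in this direction. The group levels were 74.9 ± 11.6 (SD, n = 3), 54.5 ± 6.91 (SD, n = 2) and 25.7 ± 9.87 CPM (SD, n = 3).
Between AML KO and AML WT BM, Axl fell by 1.54 on the log2 scale, with a standard error (SE) of 0.25. The quasi-likelihood test of edgeR gave an adjusted p of 0.0156 (Benjamini-Hochberg over all genes). This is a 2.91-fold lower level, with a 95% interval from 1.98-fold to 4.28-fold. Of the 4 genes, 1 passed the threshold of 0.05 in this comparison, against 2.09% of all genes in either direction and 0.323% in the direction of Axl. Axl was singled out by the study on these same libraries, so its direction is not independent evidence. The study also reported less Axl protein in AML KO BM by Western blot, and more Axl RNA after expression of gain-of-function STAT5. Neither was analysed here. For Axl in these libraries, leaving out AML WT replicate 2 gave a log2 fold change of -1.67 with an edgeR adjusted p of 0.0579. Leaving out AML KO replicate 3 gave -1.40 with 0.0728.
In BM, fewer cells of an Axl-positive type and less Axl RNA per cell cannot be told apart.

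**Figure D1:**
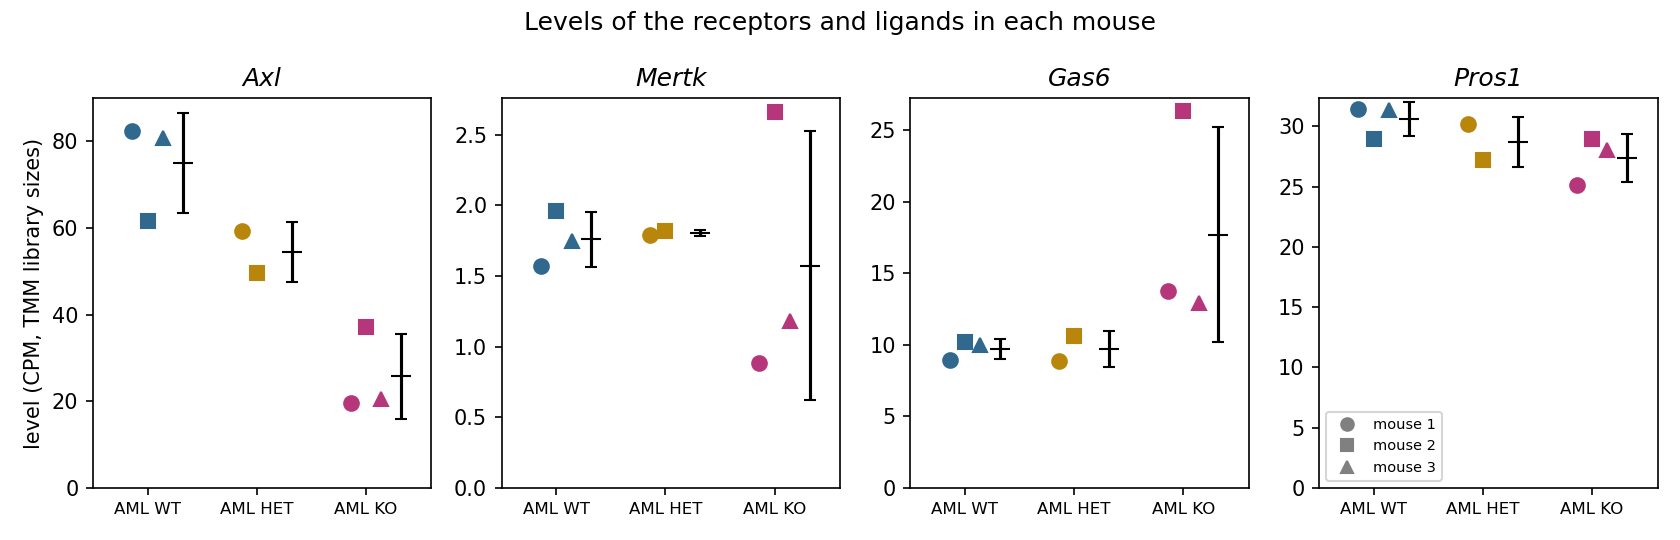
Levels of Axl, Mertk, Gas6 and Pros1 in CPM on a linear axis from 0, with 1 symbol per mouse (circle, square and triangle for mouse 1, 2 and 3) and the mean ± SD of each Gab2 genotype in black. Axl steps down from AML WT (61.6 to 82.4 CPM) to AML KO (19.6 to 37.1 CPM), whereas the highest Gas6 and Mertk values both belong to AML KO mouse 2.

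For the loss of a single allele, the log2 fold change of Axl between AML HET and AML WT was -0.46 (95% interval -1.07 to 0.15, edgeR adjusted p = 0.990). None of the 4 genes passed here, where 0.0225% of all genes did. Both AML HET mice had less Axl than any AML WT mouse, as in 8.61% of all genes. For the loss of the second allele, AML KO against AML HET, the log2 fold change was -1.08 (95% interval -1.68 to -0.48, edgeR adjusted p = 0.511). Again the groups did not overlap, as in 11.0% of all genes in this direction. In this comparison 0 genes passed with edgeR (0.0%), 780 had an unadjusted p under 0.05, 77 passed with DESeq2 and 0 with limma-voom. With DESeq2, Axl was among them (adjusted p = 0.0341). Whether AML HET lay midway was also fitted. Axl in AML HET BM was 0.31 above the midpoint of AML WT and AML KO on the log2 scale, with a 95% interval from -0.22 to 0.85 that includes 0. None of the 4 genes departed from its midpoint past the threshold, where 0.00752% of all genes did.

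Mertk, the receptor of macrophage clearance, was counted only 27 to 73 times per mouse. It was at 1.57, 1.96 and 1.75 CPM in the AML WT mice, at 1.79 and 1.82 in the AML HET mice and at 0.883, 2.66 and 1.18 in the AML KO mice. The AML KO mice spanned the other groups, with mouse 2 above and mice 1 and 3 below every other mouse. For AML KO against AML WT the log2 fold change was -0.17, with an SE of 0.40 and an edgeR adjusted p of 0.834. Its 95% interval ran from -1.07 to 0.73, so that changes of up to 2.09-fold downwards were not excluded at this depth. Leaving out AML KO replicate 1 turned it to 0.12 (edgeR adjusted p = 0.934), and leaving out mouse 2 of that group gave -0.77 (0.182).

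Among the ligands, Gas6 was at 8.92, 10.2 and 10.01 CPM in the AML WT mice, at 8.83 and 10.6 in the AML HET mice and at 13.8, 26.4 and 12.9 in the AML KO mice. Every AML KO mouse exceeded every other mouse, and mouse 2 stood far above the other AML KO mice. Such a separation from AML WT in this direction was found in 12.3% and from AML HET in 13.2% of all genes. For AML KO against AML WT, Gas6 had a log2 fold change of 0.86 with an SE of 0.27 and did not pass (edgeR adjusted p = 0.167), although its unadjusted 95% interval ran from 0.27 to 1.46. DESeq2 gave the same 0.86 with an adjusted p of 0.0432, and the value was 0.46 without AML KO replicate 2 (adjusted p = 0.171). Between AML HET and AML WT it was 0.00 (95% interval -0.67 to 0.67).
Pros1, the second ligand and an anticoagulant cofactor of the plasma, was the steadiest of the 4 genes. It was at 31.5, 29.0 and 31.4 CPM in the AML WT mice, at 30.2 and 27.2 in the AML HET mice and at 25.1, 29.0 and 28.1 in the AML KO mice. For AML KO against AML WT its log2 fold change was -0.16, with an SE of 0.12, an edgeR adjusted p of 0.478 and a 95% interval from -0.43 to 0.11. AML KO mouse 2, at 28.971 CPM, was below AML WT mouse 2, at 28.985 CPM, by less than the spread within either group, and 9.83% of all genes were likewise lower without overlap.

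**Figure D2:**
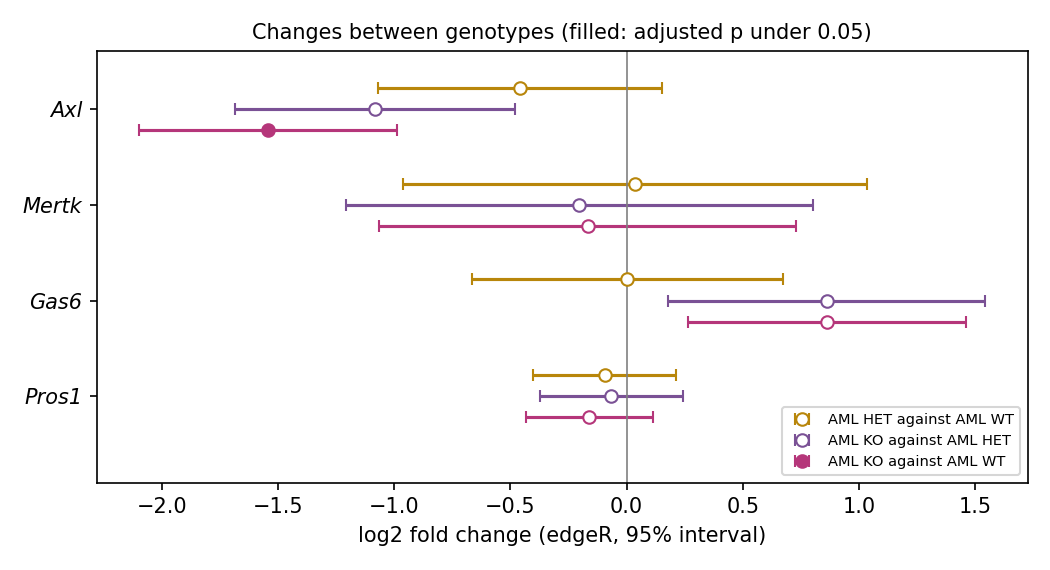
Log2 fold changes of the 4 genes for the loss of the first allele (AML HET against AML WT), of the second (AML KO against AML HET) and of both, with 95% intervals from edgeR, and filled symbols for an adjusted p under 0.05. The only filled symbol is that of Axl for AML KO against AML WT, at -1.54. The comparisons share mice and are not independent.

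To compare genes with each other, CPM were divided by the length of the annotated exons in kilobases. In AML WT BM the order was Axl at 14.9 ± 2.30 (SD, n = 3), Pros1 at 7.49 ± 0.343, Gas6 at 3.81 ± 0.267 and Mertk at 0.406 ± 0.0446 CPM per kilobase, and no neighbours in this order overlapped. In AML HET BM the order was the same, with Axl at 10.8 ± 1.37 (SD, n = 2) and Pros1 at 7.02 ± 0.508 CPM per kilobase. In AML KO BM, Gas6 was at 6.94 ± 2.95 (SD, n = 3), Pros1 at 6.70 ± 0.488 and Axl at 5.11 ± 1.96 CPM per kilobase, and the ranges of the 3 genes over mice overlapped. Within each AML KO mouse, however, Gas6 lay above Axl, at 5.40 against 3.89, 10.3 against 7.38 and 5.08 against 4.08 CPM per kilobase, whereas Pros1 lay above Axl in mice 1 and 3 and below it in mouse 2. Mertk stayed lowest, at 0.363 ± 0.219 CPM per kilobase. Over all mice, Axl was above 64.2% and Mertk above 7.23% of genes by this level.

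Whether the genes changed unequally was tested on ratios within each mouse, which do not depend on library scaling. A two-sided exact permutation test used the slope of the log2 ratio per Gab2 allele lost over all 560 assignments of the 8 mice, for which the smallest possible p is 0.00357. P was adjusted over the 4 ratios between members. The log2 ratio of Axl to Mertk was 5.71, 4.97 and 5.53 in the AML WT mice, 5.05 and 4.77 in the AML HET mice and 4.47, 3.8045 and 4.12 in the AML KO mice. The AML KO mice lay below all others, and the slope was -0.64 per allele (exact permutation p = 0.00714, adjusted 0.0143).
The log2 ratio of Gas6 to Axl, the ligand to its receptor, was -3.21, -2.60 and -3.01 in the AML WT mice, -2.75 and -2.23 in the AML HET mice and -0.51, -0.49 and -0.66 in the AML KO mice. AML KO lay 2.38 above AML WT on the log2 scale, more than any spread within a group, and the 3 AML KO mice, mouse 2 included, were close together. The slope was 1.19 per allele (exact permutation p = 0.00714, adjusted 0.0143). This ratio shares Axl with the one before it. Both carry the fall of Axl, the gene that the study had singled out on these libraries, so their p are not evidence apart from it.
For Gas6 to Pros1, the slope was 0.48 (exact permutation p = 0.0143, adjusted 0.0190), and for Pros1 to Mertk it was 0.08 (exact permutation p = 0.668, adjusted 0.668). The 3 AML KO mice against the 3 AML WT mice alone gave p = 0.1 in the exact permutation test for the first 3 ratios, the smallest p that 3 against 3 allow. Without AML HET replicate 2, the adjusted trend p of these 3 ratios was 0.0571 (exact permutation test), and that of Gas6 to Pros1 was also 0.0698 without AML WT replicate 1 and 0.0571 without AML WT replicate 3.

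**Figure D3:**
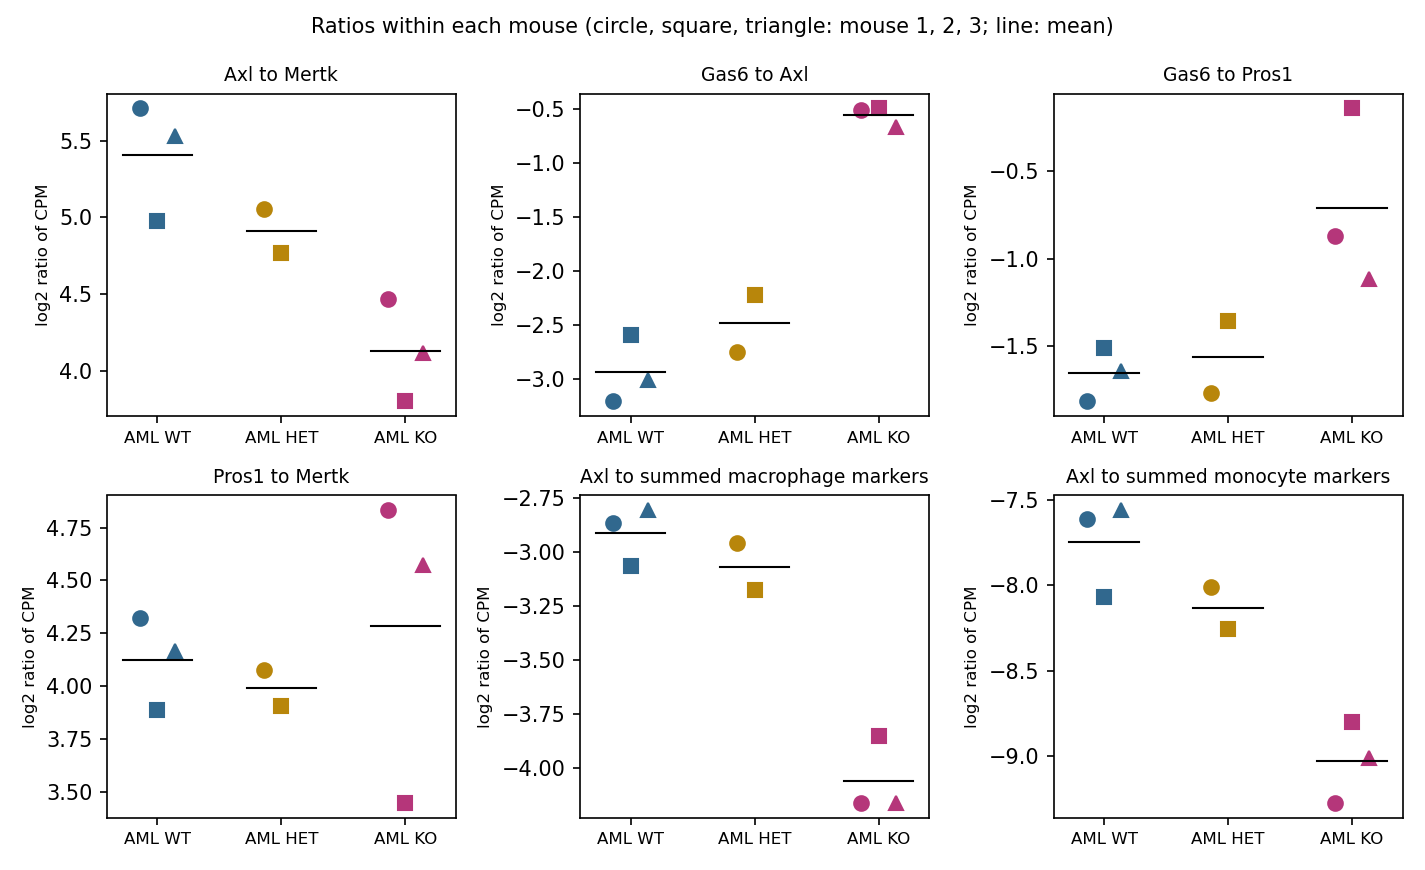
Log2 ratios of CPM within each mouse, with 1 symbol per mouse and a line at the mean of each Gab2 genotype, on linear axes that do not start at 0. AML KO mice lie apart from AML WT mice in every panel except Pros1 to Mertk, where the groups overlap.

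Genes that act before and after the receptors were read from lists of pathway genes, for AML KO against AML WT. The adaptor and effector list holds proteins known to bind TAM receptors or to answer them, and all 14 were listed, with a median log2 fold change of -0.02 beside -0.02 over all genes. Src, a cytoplasmic tyrosine kinase, was at 2.31 ± 0.367 CPM in AML WT and at 5.47 ± 0.398 CPM in AML KO BM (SD, n = 3 per group). It rose by 1.24 on the log2 scale, with an SE of 0.23 and an edgeR adjusted p of 0.0245. It was the only 1 of the 14 to pass, while 1.77% of all genes passed in this direction. Its adjusted p was above 0.05 without AML WT replicate 2 (0.123), AML WT replicate 3 (0.0782), AML KO replicate 1 (0.0788) or AML KO replicate 3 (0.0847). Src serves many receptors.
No gene of the other pathway lists passed the threshold. The maturation of Gas6 and Pros1 needs the vitamin K cycle, and its list of 5 genes, with Furin added, had a median of -0.04. Nqo1, a quinone reductase, had the smallest p (log2 fold change 0.87, edgeR adjusted p = 0.173), followed by Vkorc1, the vitamin K epoxide reductase (0.81, adjusted p = 0.210). The 7 listed genes of phosphatidylserine exposure had a median of -0.09, with Plscr1, a scramblase, at 0.38 (adjusted p = 0.207, edgeR). For the 6 genes of ectodomain shedding, by which soluble Axl and Mertk are released, the median was -0.28. Adam17 was at -0.32 (adjusted p = 0.297, edgeR) and Adam10 at -0.48 (adjusted p = 0.331), the proteases that cut these receptors, and Timp3, an inhibitor of such proteases, at 1.24 (adjusted p = 0.248).
The 16 listed genes of other apoptotic cell receptors and bridging proteins had a median of 0.18, with Itgb3, an integrin chain shared with platelets, at 0.79 (adjusted p = 0.0645, edgeR) and Thbs1, thrombospondin of platelet granules, at 1.34 (adjusted p = 0.0707). Of the 12 listed genes of the engulfment machinery, 10 had values below 0 and the median was -0.19, with Elmo2 at -0.38 (adjusted p = 0.251, edgeR) and Rac2 at 0.25 (adjusted p = 0.327). The nuclear receptors LXR and PPAR are known to induce Mertk and Axl in macrophages. Their list of 11 regulators and targets had a median of -0.16, with Pparg at -0.64 (adjusted p = 0.163, edgeR) and Lpcat3 at -0.35 (adjusted p = 0.235). Other settings called further genes of these lists. Itgb3 and Thbs1 passed with DESeq2, Itgb3 with upper-quartile scaling, Itgb3 and Timp3 without AML WT replicate 1, and Thbs1 without AML KO replicate 1. With sample quality weights in limma-voom, Nqo1, Timp3, Itgb3 and Thbs1 passed, all upwards. Over all genes, 730 passed with DESeq2, 290 with upper-quartile scaling and 797 with sample quality weights. Without AML WT replicate 1 it was 167, and without AML KO replicate 1 it was 137.

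**Figure D4:**
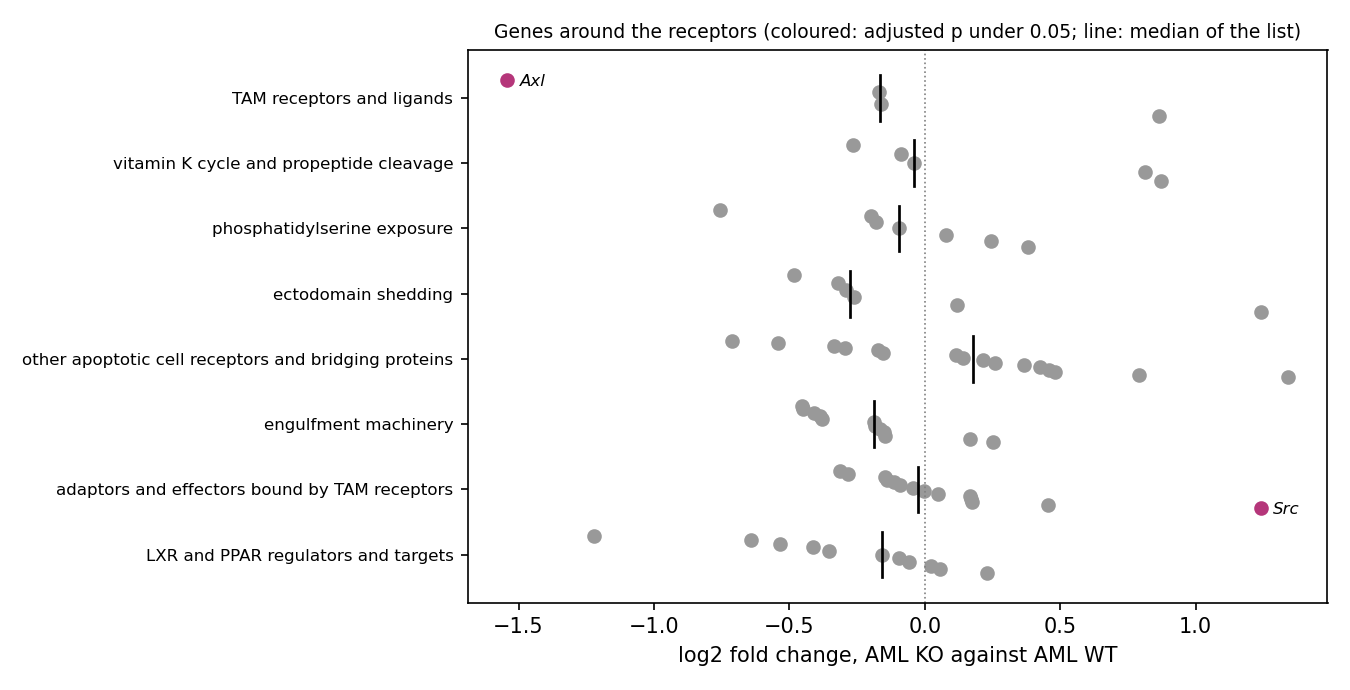
Log2 fold changes between AML KO and AML WT BM for each listed gene of 8 pathway lists, with 1 point per gene, coloured where the adjusted p was under 0.05, and a line at the median of the list. Axl at -1.54 and Src at 1.24 are the coloured points, and the medians lie between -0.28 and 0.18.

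Because whole BM mixes cell types, the members were set beside marker genes. All 14 macrophage markers were listed and none was at 0 in any mouse, and their summed level was 516 to 600 CPM in AML WT, 449 to 461 in AML HET and 351 to 537 in AML KO BM. In AML KO mice 1 and 3 the macrophage sum was 351 and 367 CPM, below every other mouse. AML KO mouse 2, at 537 CPM, lay within the range of AML WT. Mrc1, the mannose receptor and with Cd68 the marker of most counts, fell (log2 fold change -0.87, adjusted p = 0.0156, edgeR), while Slc40a1, the iron exporter of recycling macrophages (1.17, adjusted p = 0.0163), Vcam1 (1.02, adjusted p = 0.0344) and Cd5l (2.31, adjusted p = 0.0387) rose. Cd68 was at -0.39 (adjusted p = 0.325). Leaving out AML WT replicate 2 took the adjusted p of Mrc1, Slc40a1, Vcam1 and Cd5l to between 0.058 and 0.150. For Cd5l it was above 0.05 without any single AML WT or AML KO mouse (0.0614 to 0.134, edgeR). Vcam1 was above it also without AML WT replicate 1 (0.0826) or 3 (0.0594), AML KO replicate 3 (0.0740), or with only AML WT and AML KO in the fit (0.0707). So was Mrc1 without AML KO replicate 1 (0.0516) or 3 (0.0635), and Slc40a1 without AML WT replicate 1 (0.0506). Without AML KO replicate 2, a fit in which 370 of all genes passed, 3 macrophage markers passed downwards (Cd68, Adgre1 and Mrc1) and 2 upwards (Slc40a1 and Vcam1). The 11 monocyte markers, led by Lyz2 (-0.27, adjusted p = 0.454, edgeR) and F13a1 (-0.53, adjusted p = 0.315), summed to 15230 to 16523 CPM in AML WT, 15161 to 15335 in AML HET and 10580 to 16586 in AML KO BM, with none past the threshold. AML KO mice 1 and 3, at 12162 and 10580 CPM, lay below every other mouse, and AML KO mouse 2, at 16586 CPM, above. With DESeq2, Fcgr1 passed downwards, and with sample quality weights in limma-voom, Cd14 and Cx3cr1 did.
Axl was lower also relative to these sums. The ratios to both sums carry the fall of Axl itself, so their p are not evidence apart from it. Most of the monocyte sum was Lyz2, at 10474 ± 732 CPM in AML WT mice (SD, n = 3). The part of macrophages and monocytes in the level of Axl was not tested. The log2 ratio of Axl to summed macrophage markers was -3.07 to -2.81 in AML WT, -3.18 to -2.96 in AML HET and -4.16 to -3.85 in AML KO mice. Its slope was -0.57 per allele (exact permutation p = 0.00714, adjusted 0.00714 over 4 ratios to marker sums), against -0.64 for the ratio to monocyte markers (exact permutation p = 0.00714, adjusted 0.00714). In both ratios all 3 AML KO mice lay below all other mice, and both passed in each of the 8 fits without 1 mouse.
Dendritic cells and osteoclasts, which can carry Axl too, were read in the same way. All 10 dendritic cell markers had values below 0, with a median of -0.96 and 1 past the threshold, Itgax (-1.10, adjusted p = 0.0457, edgeR), a call that was lost on leaving out any mouse except AML WT mouse 1 or AML KO mouse 2. With DESeq2 (730 of all genes passed) and with edgeR without AML WT replicate 1 (167), 4 of the 10 passed downwards (H2-Ab1, Cd74, Zbtb46 and Itgax). Without AML KO replicate 2 (370), Cd74 and Itgax did. The most counted of them were Cd74 (-1.21, adjusted p = 0.0736) and H2-Ab1 (-1.0015, adjusted p = 0.177), both of antigen presentation by many cell types. Their sum was 2975 to 5801 CPM in AML WT, 2862 to 3466 in AML HET and 1959 to 2928 in AML KO mice. Of 8 osteoclast markers 5 were listed, without Calcr, Oscar and Dcstamp. Acp5 (-1.66, adjusted p = 0.0102, edgeR) and Ctsk (-2.25, adjusted p = 0.0131) fell, and Mmp9, also a neutrophil enzyme, rose (1.12, adjusted p = 0.0460). Without AML WT replicate 2 their adjusted p was 0.0579, 0.0628 and 0.159. That of Mmp9 was above 0.05 also without AML WT replicate 1 (0.124, edgeR) and without any single AML KO mouse (0.0579 to 0.120). With only AML WT and AML KO in the fit the adjusted p of Mmp9 was 0.0868, and with only genes of a mean count of at least 100 it was 0.0588. The summed osteoclast markers were at 185 to 240 CPM in AML WT, 104 to 109 in AML HET and 126 to 218 in AML KO mice. Most of the AML KO sum was Mmp9, at 131 ± 29.4 CPM (SD, n = 3). The part of dendritic cells and osteoclasts in the level of Axl was not tested.
Beside Gas6, the summed endothelial markers were also highest in AML KO BM. All 12 were listed, led by Pecam1 (0.28, adjusted p = 0.280, edgeR) and Eng (0.12, adjusted p = 0.756), and their sum was 175 to 203 CPM in AML WT, 173 to 201 in AML HET and 213 to 292 in AML KO mice, highest in AML KO mouse 2, where Gas6 was highest too. Past the threshold were Tie1 (1.25, adjusted p = 0.0152, edgeR) and Vwf, also a platelet protein (1.85, adjusted p = 0.00884), at 0.0794 and 0.0579 without AML WT replicate 2. The rise of the sum lay mostly in Pecam1, Vwf and Tie1. From AML WT to AML KO (SD, n = 3 each), they went from 85.5 ± 8.85 to 104 ± 8.67, from 7.20 ± 1.76 to 26.0 ± 3.03 and from 11.5 ± 2.08 to 27.3 ± 5.57 CPM. Of the 12, 2 had values below 0, Flt1 (-1.05, adjusted p = 0.123, edgeR) and Kdr (-0.54, adjusted p = 0.521), and Flt1 passed downwards with DESeq2 and without AML KO replicate 2. Cdh5 was at 0.06 (adjusted p = 0.954, edgeR) and Tek at 0.20 (adjusted p = 0.817). Emcn was at 0.56 (adjusted p = 0.353, edgeR) and Cldn5 at 0.96 (adjusted p = 0.230). The part of endothelium in the level of Gas6 was not tested. The 11 stroma markers, led by Col1a1 (-0.90, adjusted p = 0.161, edgeR) and Col1a2 (-0.95, adjusted p = 0.131), summed to 796 to 1402 CPM in AML WT, 687 to 779 in AML HET and 464 to 799 in AML KO mice, with none past the threshold. The collagens dominate this sum, while 6 of the 11 had values above 0 and the median was 0.28, with Adipoq at 2.06 (adjusted p = 0.0611, edgeR) and Cxcl12 at 0.66 (adjusted p = 0.305). With DESeq2, Col1a1 and Col1a2 passed downwards and Adipoq upwards. Megakaryocytes and platelets, which are known to hold Gas6 and protein S, had all 11 markers higher, with log2 fold changes of 2.84 for Itga2b and 3.99 for Pf4. Their sum was 31.7 to 33.1 CPM in AML WT, 53.2 to 85.4 in AML HET and 223 to 329.8 in AML KO mice. The log2 ratio to this sum fell per allele lost by 1.12 for Gas6 and by 1.59 for Pros1 (exact permutation p = 0.00357 for each, adjusted 0.00714). Because the sum itself rose without overlap between groups, a gene of steady level would give a falling ratio too. These p therefore reflect the markers and say nothing on Gas6 or Pros1 alone. The level of Gas6 itself was not lower in AML KO BM. The part of megakaryocytes and platelets in the level of Gas6 was not tested. Of 10 listed erythroid markers 8, and of 10 neutrophil markers 5, passed upwards, where 1.77% of all genes did, and none of 8 NK cell markers passed. The erythroid count fell to 1 on leaving out AML WT mouse 1, to 0 for AML WT mouse 2, to 3 for AML KO mouse 1 and to 4 for AML KO mouse 3. Over all genes, 167, 40 and 238 passed without AML WT mouse 1, 2 and 3. Without AML KO mouse 1, 2 and 3 it was 137, 370 and 123. The neutrophil count was 0 on leaving out AML WT mouse 2, 1 for AML KO mouse 1, 2 for AML KO mouse 3, 3 for AML KO mouse 2 or either AML HET mouse, and 8 for AML WT mouse 3.

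**Figure D5:**
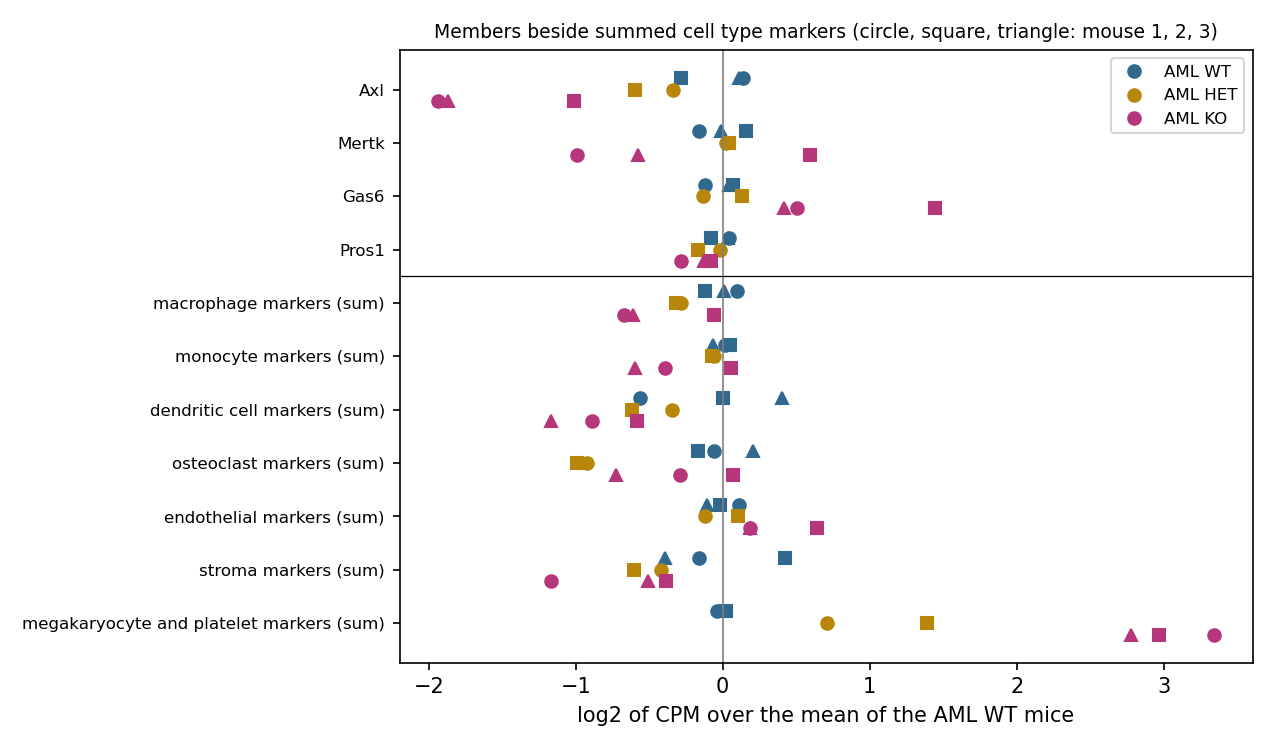
Log2 of the level over the mean of the AML WT mice for the 4 genes (above the line) and for summed cell type markers (below it), with 1 symbol per mouse. In AML KO mice, Axl lies further below AML WT than the macrophage or monocyte sums, and the platelet sum lies far above AML WT while Pros1 stays near it.

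The genes most like each member over the 8 mice were found by the root-mean-square difference of log2 CPM, each gene centred on its own mean. All mice share the genotype groups and library scaling, so this is a description. Nearest to Axl were Gm8995, a pseudogene whose counts may be shared with related copies (0.17), Cysltr1, a leukotriene receptor (0.20), and Ccnd1, cyclin D1 (0.20), where the median over all genes was 0.79. Ccnd1 went from 20.1 ± 5.62 in AML WT over 13.1 in AML HET to 6.46 ± 2.497 CPM in AML KO BM (SD, n = 3 each for AML WT and AML KO). Nearest to Gas6 were Lrrc32, a surface protein that holds latent TGF-beta (0.17), Robo4, a guidance receptor of endothelium (0.18), and Agt, angiotensinogen (0.19). Among the 10 nearest genes, 2 are in the endothelial list (Cldn5 and Emcn) and 1 in the stroma list (Cxcl12). Each of them was highest in AML KO mouse 2, at 4.99, 5.90 and 157 CPM. Nearest to Mertk were Alpl, the alkaline phosphatase of bone-forming cells (0.16), Gdpd5 (0.18) and Col2a1, a cartilage collagen (0.19). Pros1 varied by only 0.32 on the log2 scale, so its nearest genes, Crlf3, Ythdf2 and Ube2g1 (0.04 each), are ones that hardly moved.

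Genes next to the members on their chromosomes did not pass the threshold. Hnrnpul1, 2.52 kb from Axl, had a log2 fold change of -0.19 (adjusted p = 0.585, edgeR), and Cyp2s1, 13.8 kb on the other side, -0.48 (adjusted p = 0.584). Of the 15 listed genes within 500 kb of Axl, 0 passed in either direction, and their values ran from -0.48 to 0.54. None of the 15 genes around Mertk, the 16 around Gas6 and the 2 around Pros1 passed either. With 2.09% of all genes past the threshold, counts of 0 in lists this short are near the background. Mertk lies between Anapc1 (-0.45) and Tmem87b (-0.19), Gas6 between Tfdp1 (-0.13) and Rasa3 (-0.14), and Pros1 between Arl13b (-0.30) and 4930453N24Rik (0.24). Arl13b is 7.27 kb from Pros1. On the other side 4930453N24Rik is the next listed gene, but it is 1822.4 kb away and outside the 500 kb window.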

How the data were processed

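The authors sequenced BM RNA of 8 mice on an Illumina HiSeq4000 and deposited raw counts per gene, without normalization. The submitters' processing notes name Trimmomatic 0.36, STAR 2.5.2b and mm10. The counting tool and its annotation are not given in the sources used here, nor is strandedness. Genes with few counts are not in the table. Of 13305 Ensembl identifiers, 13266 were matched to GENCODE M21, and promoter sequences are from RefSeq (GRCm38.p6), where all 4 members matched.

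Counts were analysed with edgeR 4.0.16 in R 4.3.3 (TMM, filterByExpr, robust quasi-likelihood test, all 8 mice, Gab2 genotype as the only term, Benjamini-Hochberg over all genes, threshold 0.05). Standard errors were derived from the F statistic. With groups of this size, simulated AML KO against AML WT counts of 13305 genes gave 46 of 50 genes lowered 4-fold and 30 of 50 lowered 2-fold. The study speaks of AML KO and AML WT littermates, and the labels do not say which sequenced mice shared a litter, so p measures the spread between these mice. A count of 0 allows 3 counts, or 0.0764 to 0.107 CPM, for counting error only. Genes named by rule are the members, genes of each pathway list past the threshold (at most 4, or otherwise the 2 with the smallest p), the 2 most counted of each marker list set beside a result, the 3 nearest patterns and the adjacent genes. The other genes, such as Adam10, Slc40a1, Vcam1, Cd5l, Adgre1, Itgax, Zbtb46, Ctsk, Tie1, Vwf, Flt1, Kdr, Cldn5, Emcn, Adipoq and Cxcl12, were picked once their values had been seen. The rule also names 1 pathway gene that is not reported here. Members and lists were chosen with earlier results of these data known. Alternatives were DESeq2 1.42.0, limma-voom (limma 3.58.1), other scalings and filters, a replicate block, pairs of groups alone and leaving out each mouse.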

Additional observations from a re-analysis of the deposited data

How the results depend on the processing

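Leaving out single mice moved the number of genes past the threshold from 278 to between 40 (without AML WT replicate 2) and 370 for AML KO against AML WT, from 3 to between 1 and 5 for AML HET against AML WT, from 0 to between 0 and 4 for AML KO against AML HET, and from 1 to between 0 and 3 for AML HET against the midpoint. DESeq2 gave 730, 59, 77 and 3 genes for the same comparisons. A mean count of at least 100 gave 185 for the first and 0 for the last, and gave no value for Mertk. Sample quality weights in limma-voom, added after seeing the data, gave 797 for the first, and limma-voom gave 1 for AML HET against AML WT. With only the groups compared in the fit, AML HET against AML WT gave 5 and AML KO against AML HET 3.

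With the replicate number as a block, the counts were 19, 0, 0 and 0, Axl had a log2 fold change of -1.57 (adjusted p = 0.110 from edgeR), and the AML HET against AML WT values of Mertk and Gas6 turned to -0.0224 and -0.0923. Among the list genes, 6 megakaryocyte and platelet markers passed with the block, and no macrophage, dendritic cell, osteoclast, endothelial, erythroid or neutrophil marker did. The labels do not say whether a number marks a shared litter or day. Over 7 pairs of the same number, the correlation of deviations from the group means ran from -0.51 to 0.29, and 1 was over 0.1. Deviations within groups this small are tied to each other, so these correlations cannot decide whether the numbers pair the mice.

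For AML KO against AML WT, Axl stayed between -1.90 and -1.38 without single mice and between -1.63 and -1.52 under the other settings, with adjusted p from 2.9e-07 to 0.110. Mertk ran from -0.77 to 0.12 without single mice. Gas6 passed only with DESeq2 (0.86, adjusted p = 0.0432), and its adjusted p lay between 0.0432 and 0.272 over the settings other than leaving out a mouse. Without single mice, Mertk ran from -0.0365 to 0.12 (AML HET against AML WT) and from -0.81 to 0.0851 (AML KO against AML HET), Gas6 from -0.13 to 0.13 (AML HET against AML WT), and Pros1 from -0.14 to 0.00938 (AML KO against AML HET). The slopes per allele ran from -0.75 to -0.55 for Axl to Mertk, from 0.32 to 0.55 for Gas6 to Pros1, from 1.13 to 1.32 for Gas6 to Axl and from -0.0622 to 0.26 for Pros1 to Mertk. Adding 1 count before the ratio changed no call. The cause of these shifts was not tested. Depth limits Mertk, with 27 counts in 1 mouse.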

Other observations

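Ratios to further marker sums were computed after the data were seen and were not tested. The log2 ratio of Axl to summed dendritic cell markers was -6.17 to -5.17 in AML WT, -5.87 to -5.85 in AML HET and -6.92 to -6.30 in AML KO mice, a difference of -0.77 between the means of AML KO and AML WT. To summed osteoclast markers, it was -1.59 to -1.27 in AML WT and -3.12 to -2.56 in AML KO mice, but -1.07 to -0.88 in AML HET mice. There Ctsk and Acp5 were already low (21.4 ± 3.36 and 27.3 ± 0.334 CPM, SD, n = 2, against 69.1 ± 4.48 and 73.7 ± 6.55, SD, n = 3, in AML WT). In AML KO mice, Ctsk and Acp5 were at 14.5 ± 8.67 and 23.3 ± 9.11 CPM (SD, n = 3). Most of the AML KO sum was Mmp9 (131 ± 29.4 CPM, SD, n = 3), so the ratio there largely sets Axl against Mmp9. The log2 ratio of Gas6 to summed endothelial markers was -4.51 to -4.12 in AML WT and -4.04 to -3.47 in AML KO mice, a difference of 0.45 between the means. To summed stroma markers, the log2 ratio of Gas6 was -7.11 to -6.31 in AML WT, -6.46 to -6.02 in AML HET and -5.83 to -4.92 in AML KO mice, a difference of 1.43 between the means of AML KO and AML WT. The log2 ratio of Mertk to summed macrophage markers overlapped between AML WT (-8.58 to -8.04) and AML KO mice (-8.64 to -7.66).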
